A study of Drosophila melanogaster with 3 samples.

Results

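Tagged Deaf1 occupied 875 broad intervals of fly embryo chromatin that each held more than 1 summit, out of 7673 intervals in the final peak set (11.4%). They were chosen by the peak calls themselves: an interval belongs here when the same chromosome, start and end stand in at least 2 rows, each row carrying its own summit. Summit number, and the width and signal that the peak caller reports with it, are therefore descriptions below and carry no test. The remaining 6798 intervals had 1 summit and are called single-summit intervals. The data are ChIP-seq of 3 biological replicates in 1 group, with no other genotype, treatment or age. Every embryo carried Deaf1 fused to GFP at its C terminus, from a stable transgenic insertion, and chromatin was pulled down through the GFP tag. Embryos of both sexes, collected from 0 to 24 h of development, were used whole, so each value is an average over all cell types and embryonic stages, and the wild-type protein was not profiled. A control experiment that the labels mention was not analysed here.

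Deaf1 is a transcription factor whose SAND domain contacts DNA at sequences built on TTCG. In flies it is known for binding a regulatory region of the homeotic gene Deformed and for acting at immune genes, and loss of the gene is lethal during development. In peak calling, the summit is the position of strongest local enrichment, and a caller that finds several local maxima under one stretch of enriched chromatin reports them inside one interval. The questions put to the 875 intervals were how their summits were spaced and balanced, which genes they covered, what sequence lay under each summit, and whether each replicate found the same summits.

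The sequences under 6 pairs of summits show the range from uneven to even pairs. Eip75B (an ecdysone-induced nuclear receptor), caps (a leucine-rich repeat receptor of axon guidance) and SCaMC (a mitochondrial carrier) were the 3 pairs of highest signal outside one chromosome arm, of which no sequence is shown. The pairs at tara (a transcriptional co-regulator) and Dif (an NF-kB factor of the Toll pathway) were the most even outside that arm among pairs in the top 25% of the 875 by signal, and Gug (an Atrophin-type corepressor) had the highest signal among pairs under 250 bp apart and was chosen after its values were seen. Each run is the summit with 50 bp on each side, on the plus strand, 5′ to 3′, from the RefSeq genome on the same assembly as dm6. The Dif run spans both summits in 300 bp, with the stronger summit at base 51 and the weaker at base 250. Capitals mark TTCGG or its reverse complement CCGAA.
Eip75B, stronger summit (chr3L:17971230-17971330): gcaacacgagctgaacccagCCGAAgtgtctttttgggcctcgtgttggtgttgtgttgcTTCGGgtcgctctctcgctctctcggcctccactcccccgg
Eip75B, weaker summit (chr3L:17972540-17972640): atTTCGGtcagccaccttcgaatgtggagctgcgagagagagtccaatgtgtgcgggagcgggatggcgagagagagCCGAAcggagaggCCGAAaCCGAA
caps, stronger summit (chr3L:13228562-13228662): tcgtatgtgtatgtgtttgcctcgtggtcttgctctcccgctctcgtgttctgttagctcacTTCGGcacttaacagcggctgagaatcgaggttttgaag
caps, weaker summit (chr3L:13227676-13227776): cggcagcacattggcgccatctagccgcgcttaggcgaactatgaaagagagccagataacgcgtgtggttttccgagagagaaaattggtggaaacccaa
SCaMC, stronger summit (chr3L:12408626-12408726): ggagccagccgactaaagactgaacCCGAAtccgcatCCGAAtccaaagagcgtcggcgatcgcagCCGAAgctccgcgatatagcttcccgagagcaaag
SCaMC, weaker summit (chr3L:12407445-12407545): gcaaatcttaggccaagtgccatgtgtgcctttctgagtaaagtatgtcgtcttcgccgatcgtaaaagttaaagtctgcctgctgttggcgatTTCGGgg
tara, stronger summit (chr3R:16242614-16242714): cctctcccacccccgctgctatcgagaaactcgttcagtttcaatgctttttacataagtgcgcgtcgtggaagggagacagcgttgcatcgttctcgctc
tara, weaker summit (chr3R:16241374-16241474): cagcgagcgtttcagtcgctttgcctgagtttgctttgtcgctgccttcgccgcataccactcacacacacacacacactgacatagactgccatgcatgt
Dif, both summits (chr2L:17430242-17430541): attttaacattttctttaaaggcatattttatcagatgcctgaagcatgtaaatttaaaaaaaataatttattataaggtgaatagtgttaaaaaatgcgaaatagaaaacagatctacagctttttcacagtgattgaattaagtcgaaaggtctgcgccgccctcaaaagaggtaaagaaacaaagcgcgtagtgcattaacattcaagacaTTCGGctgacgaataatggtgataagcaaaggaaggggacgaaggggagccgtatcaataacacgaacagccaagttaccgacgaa
Gug, stronger summit (chr3L:8455323-8455423): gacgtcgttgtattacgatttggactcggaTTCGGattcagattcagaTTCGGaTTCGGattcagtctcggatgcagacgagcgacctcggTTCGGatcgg
Gug, weaker summit (chr3L:8455561-8455661): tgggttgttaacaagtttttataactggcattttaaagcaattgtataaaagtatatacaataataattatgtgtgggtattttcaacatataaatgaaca

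Eip75B held 2 matches at the stronger and 4 at the weaker summit. The caps pair had 1 and 0, the SCaMC pair 3 and 1, and the tara pair 0 at both. At Dif the weaker of both summits had the 1 match, and the stronger lay in a window of 21.8% G+C. The Gug pair had 4 and 0, and G+C fell from 51.5% under its stronger summit to 23.8% under its weaker one, 238 bp away.

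Broad intervals with several summits were longer and had higher signal than the single-summit intervals. Of the 875, 785 had 2 summits, 68 had 3, 17 had 4, 4 had 5 and 1 had 7. Together they held 1869 of the 8667 summits (21.6%) and 23.0% of the interval length. Their median width was 875 bp (quartiles 683 and 1251, range 382 to 4776), against 425 bp (281 and 537) for single-summit intervals. Width rose with summit number, from a median of 843 bp with 2 summits to 1792 bp with 3 and 2497 bp with 4. The median signal at the strongest summit was 1342, against 487 in single-summit intervals, and 542 of the 875 (61.9%) were in the top 25% of all intervals by signal. Signal here is the number that the peak caller gave each summit, with no unit and not scaled between lists. In each replicate, the 8667 rows of highest signal, as many as the final set has, formed a top list. These lists had 809, 698 and 766 intervals with several summits in replicates 1, 2 and 3 (757.7 ± 56.0, SD), of 764 ± 6.87 bp median width against 465.7 ± 3.79 bp for their single-summit intervals (SD, n = 3).

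**Figure D1:**
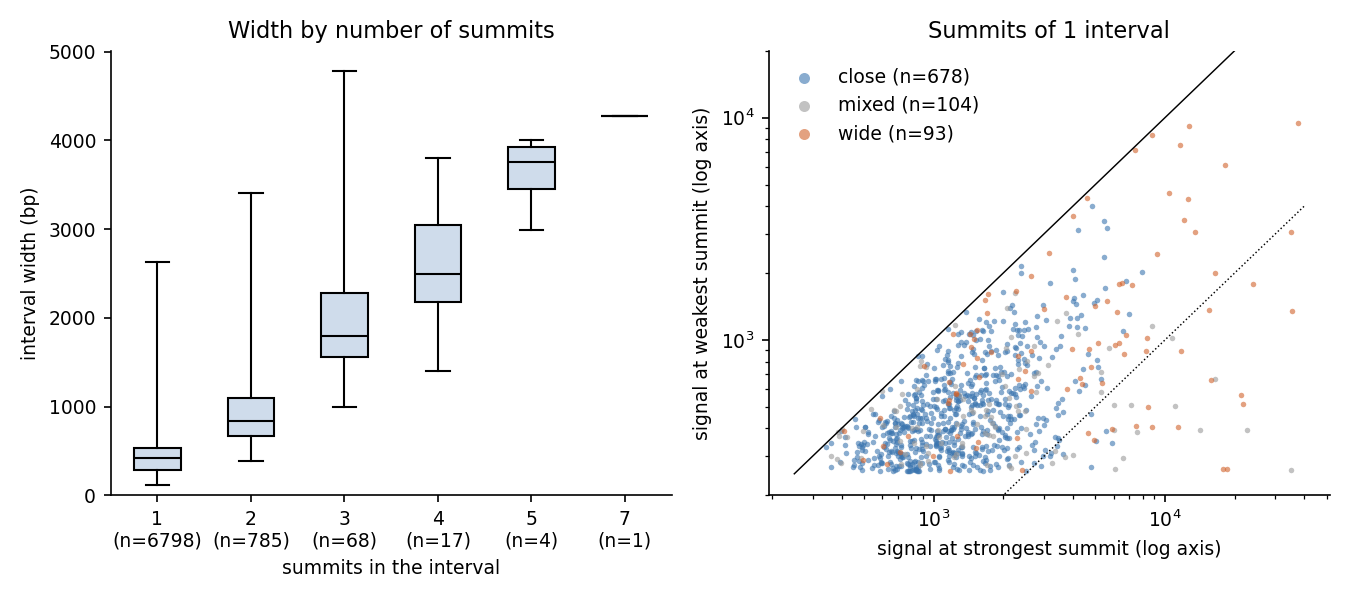
Left, interval width in bp by number of summits in the final set, with median (line), quartiles (box) and range (whiskers). Right, signal at the weakest against the strongest summit of each of the 875 intervals on log axes, where the solid line marks equal signal and the dotted line marks 10%. Points reach up to the line of equality, and 43 intervals lie below 10%.

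The final set is a list of the highest pooled signals, so the line between 1 and 2 summits falls at a signal value. The lowest second-highest summit among the 875 intervals had a signal of 256.3. The highest further pooled summit inside a single-summit interval had 255.96. In the pooled list, 661 of the single-summit intervals held at least 2 summits, and 91 of the 875 held 107 further summits below that line. For 125 of the 875 the weakest summit was under 300.

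The intervals were spread over the chromosome arms at similar shares. They made up 11.3% of the intervals on 2L, 13.2% on 2R, 10.7% on 3L, 11.7% on 3R and 9.95% on X, and 4 of 27 (14.8%) on the small chromosome 4. Of the 875, 25 overlapped another interval of the final set, against 529 of all 7673 intervals. Along an arm the median distance between neighbours among the 875 was 62555 bp, and 128 of 869 neighbouring pairs were under 5 kb apart. These distances were not set beside those of all intervals, so they do not show clustering.

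Neighbouring summits were either about 200 bp apart or 500 to 1800 bp apart, with few gaps between. Among the 994 gaps the smallest was 199 bp, the median 207 bp and the largest 1804 bp. Of these, 578 (58.1%) were under 210 bp and 764 (76.9%) under 250 bp, while 49 fell from 250 to 499 bp and 181 (18.2%) were 500 bp or more. In intervals of 3 or more summits the median gap was 383 bp and 47.8% of gaps were 500 bp or more. The smallest distance between any neighbouring summits was also 199 bp in the pooled list and in each replicate list, in the same interval or not. The settings of the caller were not known, and the labels give a size range of 200-800 for the libraries with no unit. The part of either in the spacing was not tested. In the replicate top lists the median gap was 204.3 ± 0.577 bp and 85.3% ± 2.19 of gaps were under 250 bp (SD, n = 3).

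**Figure D2:**
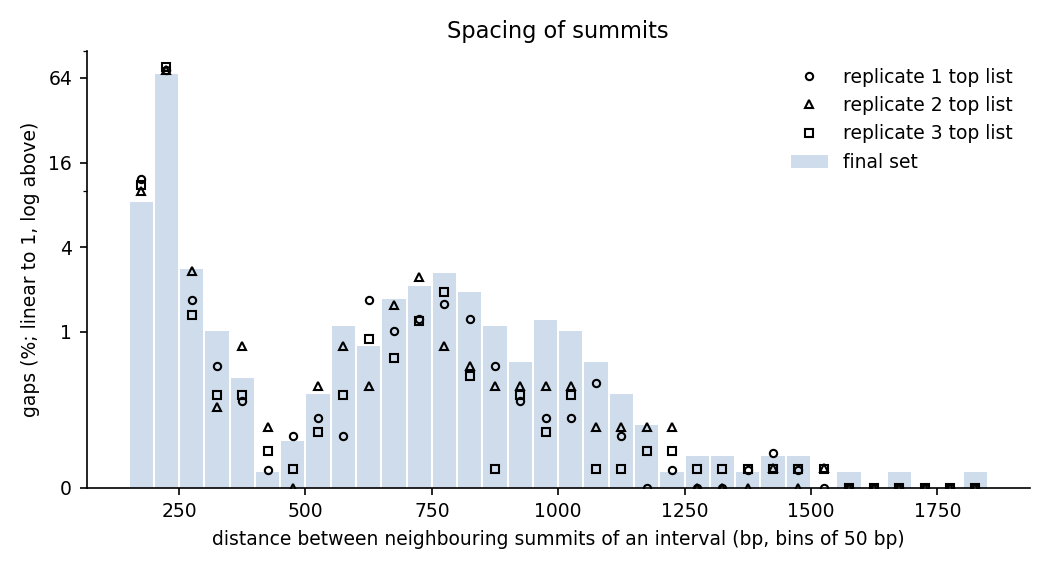
Share of gaps between neighbouring summits of an interval, in percent, by distance in bins of 50 bp, for the final set (bars) and the 3 replicate top lists (symbols). The vertical axis is linear to 1% and logarithmic above. A narrow mode from 199 to 250 bp and a low, wide one from 500 bp upward appear in each list, and the replicate lists hold fewer of the large gaps.

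On this spacing the intervals were split, after the gaps had been seen, into 678 close ones with every gap under 250 bp, 93 wide ones with every gap of 500 bp or more, and 104 mixed ones. Wide intervals were rarer and stronger. Their median signal was 4398 against 1247 for close ones, 84 of 93 were in the top 25% of all intervals by signal against 390 of 678, and their median width was 1813 bp against 791.5 bp.

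One summit usually dominated. The weakest summit had a median of 37.3% of the signal of the strongest in the same interval (quartiles 25.2% and 55.0%, range 0.736% to 99.7%). The ratio was 39.5% with 2 summits, 25.2% with 3, 22.0% with 4 and 3.14% with 5. In 25 intervals the weakest reached over 90% of the strongest, and in 43 it was under 10%. Close and wide intervals had medians of 38.9% and 28.6%, and under 10% lay 10 of 678 and 17 of 93 of them. No summit of the final set was below 256.1, so a low ratio needs a strongest summit of high signal. Wide intervals had the higher signals, and the weakest of more summits tends to be lower. These contrasts in ratio are therefore not separate from signal and summit number. Across the replicate top lists the median ratio was 32.4% ± 1.39 (SD, n = 3).

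The pair of highest signal was at Eip75B, in 3411 bp of 3L from 17970128 to 17973538. Its stronger summit lay 159 bp downstream of a TSS and the weaker 1310 bp away, inside an intron and 1151 bp upstream of the nearest TSS. Divided by the median signal of the replicate's own list, the stronger summit stood at 247.2, 293 and 218 in replicates 1, 2 and 3, and the weaker at 61.7, 72.5 and 57.5. The weaker was therefore 24.97%, 24.8% and 26.3% of the stronger, close to the 25.1% of the final set. Each summit was highest in replicate 2, and the weaker was far below the stronger in each replicate.

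At caps, on 3L from 13227432 to 13229247, the summits were 886 bp apart and far less equal. The stronger, 80 bp upstream of the TSS, stood at 222, 269 and 228 times the list median, and the weaker, intergenic one at 7.88, 9.25 and 10.6 times. The ratio was 3.55%, 3.44% and 4.67%. Its stronger summit was nearly as high as that of Eip75B, at 239.5 ± 25.4 against 252.9 ± 37.6 times the list median (SD, n = 3), a gap within the spread between replicates. The pair at SCaMC, 1181 bp apart on 3L from 12406974 to 12409133, had a ratio of 7.36% in the final set. Su(z)2 (a Polycomb group gene), on 2R from 12995827 to 12998164, had 8.67%. The emc pair (emc encodes a helix-loop-helix inhibitor of proneural factors) was more even, at 28.3%, 35.4% and 38.5% in the replicates.

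Even pairs kept their balance, though not always the same order. At lola (a BTB zinc-finger factor of axon growth), on 2R from 10533836 to 10535715, the summits were 796 bp apart and each lay within 80 bp of a different TSS. The ratio was 96.8% in the final set and 105.8%, 84.5% and 103.1% in the replicates, so the order turned in 2 of 3. At tara, on 3R from 16240489 to 16243152, it was 102.2%, 92.5% and 90.4% over 1240 bp. At heph (a polypyrimidine tract-binding protein) it was 76.8%, 100.98% and 92.8% over 821 bp, and at Pax (paxillin, of focal adhesions) 79.8%, 95.5% and 71.7% over 200 bp. At Dif, replicate 1 had no summit within 100 bp of the stronger position, and the others gave 83.2% and 78.8%.

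Uneven pairs were low in every replicate that held both summits. Kr-h1 (a zinc-finger factor of juvenile hormone signalling) had 2.00%, 0.306% and 3.37%, with the weaker summit 143 bp upstream of a TSS and the stronger 660 bp downstream in the 5′ UTR. The pair at rib (a BTB factor of tracheal development) had 3.31%, 3.75% and 3.81%, and again the weaker summit was at the promoter, 166 bp upstream of the TSS, while the stronger was intergenic. At CG34136 the stronger summit stood at 95.4 ± 4.1 times the list median (SD, n = 3) with 5 TTCGG matches within 50 bp, and no replicate had a summit within 100 bp of the weaker one, 252 bp away.

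**Figure D3:**
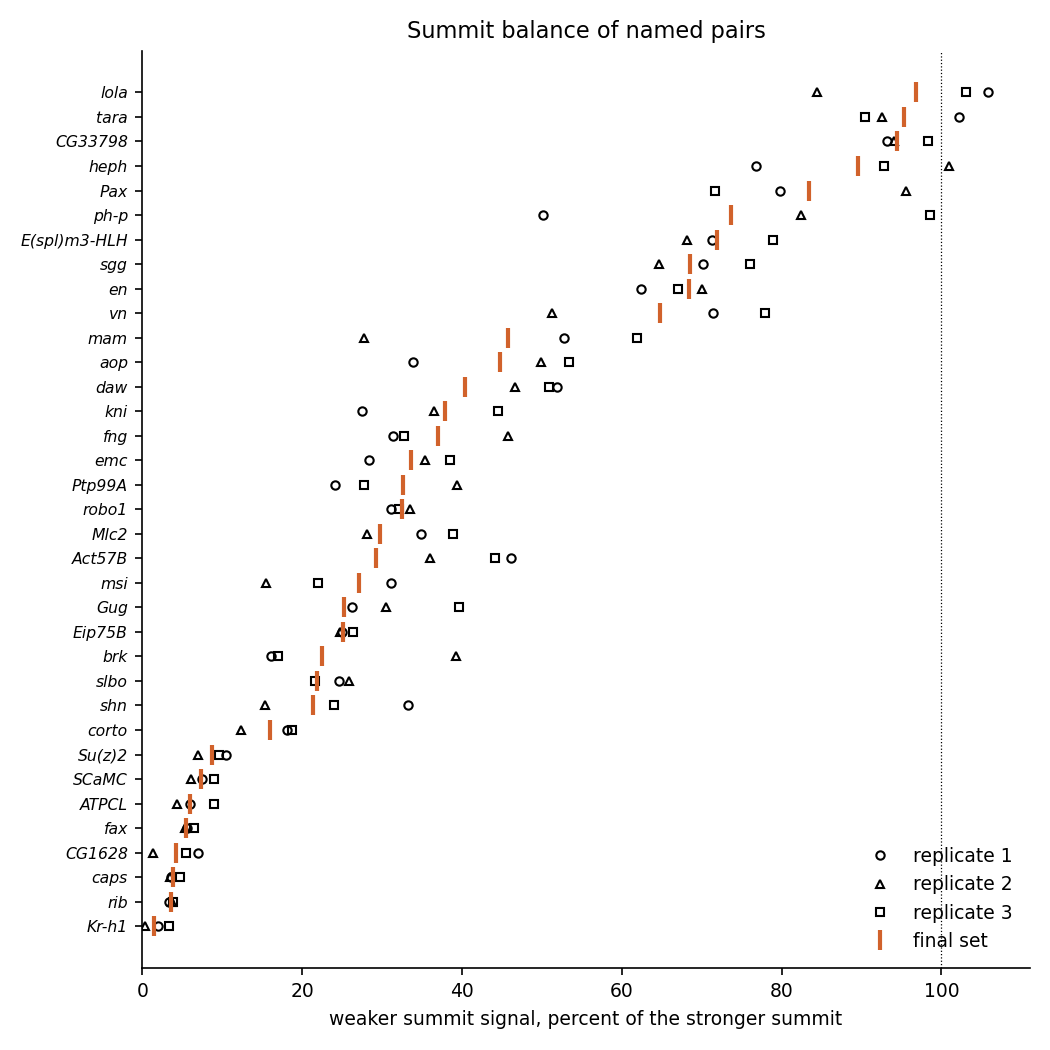
Signal of the weaker summit as a percentage of the stronger for the 35 of 40 named pairs with both summits in each replicate, for 3 replicates (symbols) and the final set (bars), ordered by the final set. In 32 pairs every replicate is below 100%, and lola, tara and heph reach over it in at least 1 replicate.

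A few genes had several of the 875 intervals. By the nearest TSS to the strongest summit, tara had 7 of the 875 intervals with 28 summits over 20003 bp, and Eip75B had 7 with 14. Tlk (Tousled-like kinase) had 6, Su(z)2 had 5, and lola, Pdp1 (a PAR-domain bZIP factor of the circadian clock), zfh2, Reg-2, chinmo, ct and ftz-f1 had 4 each. Of 727 genes so named, 628 had 1 interval, 70 had 2 and 18 had 3. Gene length and the number of single-summit intervals at these genes were not set beside these counts. They therefore do not show a clustering particular to intervals with several summits. The interval with 7 summits lay in introns at tara, on 3R from 16251422 to 16255694, with its strongest summit 9350 bp downstream of the nearest TSS. That summit stood at 31.2, 24.4 and 25.6 times the list median. The next highest, 2639 bp away, stood at 14.6, 17.5 and 15.7 times, and the last of them was missing from replicate 2. In this interval the summits from 1858 bp onward were nearest to a TSS of bor.

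Another tara interval, on 3R from 16247417 to 16251025, joined the most unequal summits of all. Its strongest, intronic summit stood at 249, 248 and 212 times the list median and the other 4 at 4.91 times or less in each replicate that held them. No replicate held all 5. At Tlk, on X from 3741672 to 3745566, all 5 summits were intronic and in each replicate, from 74.5 ± 8.9 times the median at the strongest to 3.69 ± 1.5 at the weakest (SD, n = 3). The 4-summit lola interval, on 2R from 10540002 to 10543800, had its strongest summit 26 bp upstream of a TSS at 145.4 ± 5.8 times and a second promoter summit 1715 bp away at 40.7 ± 7.4 times. At Atf3 (a bZIP factor), on X from 1274575 to 1277621, the strongest summit was intergenic at 111 ± 3.5 times, 1450 bp from a promoter summit at 35.8 ± 1.3 times. Sec61alpha (the channel subunit of the endoplasmic reticulum translocon) had its strongest summit in an intron, 1023 bp downstream of the TSS, at 152.4 ± 9.6 times, and the promoter summit 1100 bp away at 44.8 ± 10.1 times. The widest interval, 4776 bp at CG43736 on X from 6859155 to 6863930, held 2 nearly equal summits of 103.9 ± 20.8 and 96.3 ± 3.6 times, 1168 bp apart, and another of 9.14 ± 1.18 times.

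**Figure D4:**
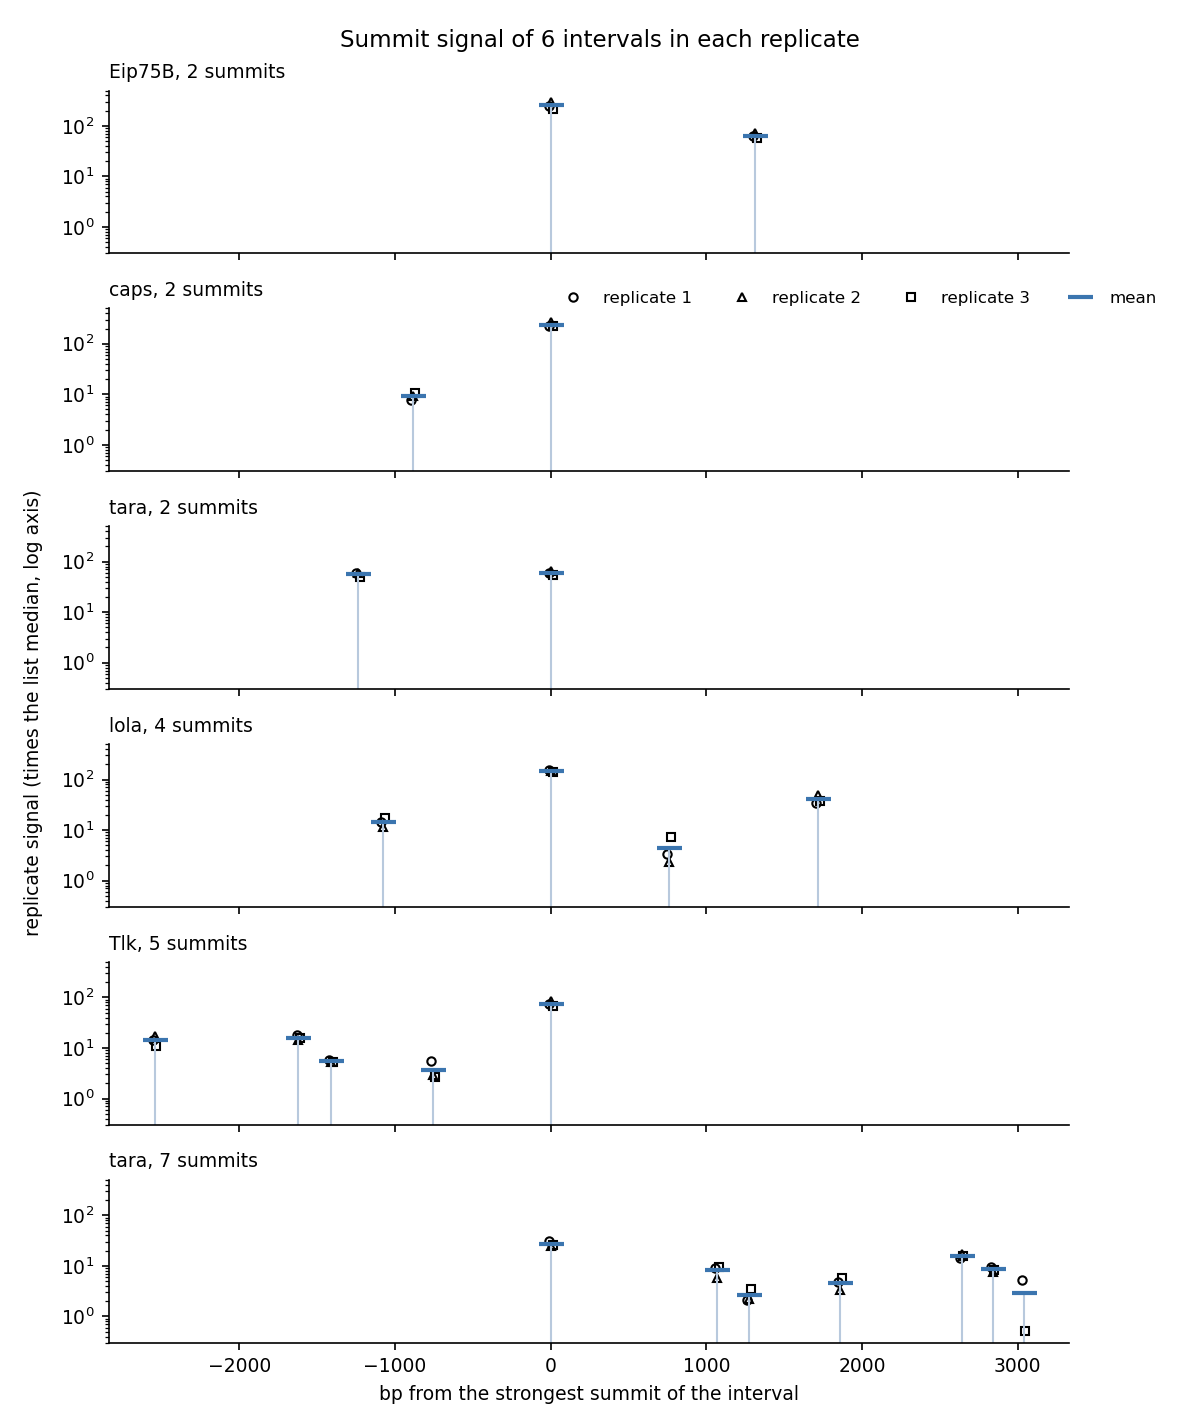
Signal of each summit in 6 intervals, in multiples of the median of the replicate's list on a log axis, against its distance in bp from the strongest summit of the interval. Symbols are replicates 1 to 3 and blue marks their mean. The symbols of a summit lie close together relative to the differences between summits, except at the weakest summits, such as the last one of the 7 at tara.

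Strongest summits were at promoters in most of these intervals, more often than in single-summit intervals over the whole set but not within the top 25% by signal. A promoter summit is one within 500 bp of a protein-coding TSS. In the final set 520 of 875 strongest summits (59.4%, 95% exact interval 56.1% to 62.7%) were at promoters, against 3338 of 6798 (49.1%, 47.9% to 50.3%) in single-summit intervals and 50.3% of all intervals. In the replicate top lists the shares were 62.7% ± 2.05 and 50.4% ± 0.246, a difference of 12.2 ± 1.91 points (SD, n = 3). It was 10.03, 13.3 and 13.4 points in replicates 1, 2 and 3 (exact two-sided sign-flip permutation test, p = 0.25, the smallest that 3 replicates can give). Within the top 25% of intervals by signal the direction turned, with 61.6% of 542 against 70.8% of 1377 in the final set, and a replicate difference of -4.41 ± 3.07 points (exact permutation p = 0.25) that was negative in each replicate. Median signals there were 1947 and 2443, so signal was only roughly alike. In the next 25% the share was higher again in intervals with several summits, at 58.7% of 288 against 53.4% of 1630, and in the 25% after that it was 38.6% of 44 against 41.6% of 1874. Close intervals had 61.8% of strongest summits at promoters and wide ones 50.5%. Strongest summits over 2000 bp from any TSS were fewer over the whole set, at 205 (23.4%) against 32.9% of single-summit intervals. Within the top 25% by signal they were not fewer, at 21.0% against 18.4%. In the next 25% the shares were 25.3% and 29.8%, and in the 25% after that 38.6% and 37.8%. Outside promoters, 201 strongest summits (23.0%) were intronic, 109 (12.5%) were intergenic and 5 were in coding exons.

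Within an interval, the strongest and the weakest summit were at promoters about equally often at 500 bp. This window could show little difference, since most intervals are close and their summits mostly share it. Of the 678 close intervals of the final set, 405 had both at a promoter and 243 neither. Only the strongest was there in 14 and only the weakest in 16. In the replicate top lists the shares were 62.7% ± 2.05 and 61.4% ± 1.93, a difference of 1.25 ± 1.28 points (SD, n = 3; 0.494, 2.72 and 0.522; exact permutation p = 0.25). A window of 250 bp gave 10.99 ± 1.52 points (SD, n = 3; exact permutation p = 0.25). The strongest was the nearer of the pair to a TSS in 522 of 875 intervals and the weakest in 353. Among the 93 wide intervals, 30 had only the strongest at a promoter, 20 only the weakest, 17 both and 26 neither. For the 476 pairs with the stronger summit at a promoter, the weaker lay upstream of it, relative to transcription, in 259 and downstream in 217 (45.6%, 95% exact interval 41.0% to 50.2%). The stronger summit had a median position of -40 bp from the TSS and the weaker -112.5 bp. In the 42 wide pairs of this kind the weaker lay upstream in 27 and downstream in 15.

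A protein-coding TSS lay inside 550 of the 875 intervals (62.9%), against 41.6% of the shorter single-summit intervals. One gene had its TSS inside 487 intervals (55.7%), 2 genes in 61 (6.97%) and 3 genes in 2, chif with Hyls1 and CG4455, and Pax with Alp12 and CG13085. TSSs on opposite strands, as at divergent or overlapping genes, were inside 56 (6.40%), against 4.27% of single-summit intervals and 4.51% of all intervals. At least 2 TSSs, of 1 gene or several, were inside 169 (19.3%), against 8.25%. In 452 intervals (51.7%) every summit was at a promoter, and in 98 of these the summits had different nearest TSSs, which in 32 belonged to different genes. At ATPCL (ATP citrate lyase) the stronger summit lay 71 bp upstream of its TSS and the weaker, 865 bp away, 42 bp downstream of the TSS of Tmem131. At Ank2 (an ankyrin) the 2 stronger summits belonged to its TSS and the 2 weaker ones to Mcad.

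Of 13945 protein-coding genes, 584 (4.19%) had a TSS inside an interval with several summits, and 3300 (23.7%) inside any interval of the final set. The first were 17.7% of the second. Notch signalling had the most of 15 gene lists, at 10 of 25 genes, where 14 had a TSS in any interval (71.4%). They were the bHLH repressors E(spl)m3-HLH, E(spl)mbeta-HLH, E(spl)mdelta-HLH and E(spl)m7-HLH with the corepressor gro, all in one cluster on 3R, the coactivator mam, the glycosyltransferase fng, the metalloprotease kuz, the ubiquitin ligase neur and the gamma-secretase subunit aph-1. E(spl)m3-HLH had the highest signal, with the stronger summit 855 bp upstream at 87.8, 91.2 and 77.2 times the list median and the weaker, promoter one 750 bp away at 62.6, 62.2 and 60.9 times. The summits were in the same order in each replicate.

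Among the Polycomb and Trithorax group genes 6 of 30 were held (of 14 in any interval), namely Su(z)2, corto, ph-p, ph-d, osa and trx. The ph-p and ph-d genes are neighbouring near-copies of each other, and how reads that match both were placed is not known here, so their summits are uncertain. Tracheal and cell migration regulators had 5 of 18 (of 14), led by rib and tara. The list of sarcomere and muscle structure genes had 5 of 26 (of 14), with Mlc2, Act57B, sls, kon and Msp300. The EGF receptor list had 4 of 25 (of 15). At vn, the neuregulin-like ligand, the stronger summit in the 5′ UTR stood at 72.7, 89.2 and 72.9 times the list median and the weaker, 65 bp upstream of a TSS and 1456 bp away, at 51.9, 45.8 and 56.9 times. The others were aop (the ETS repressor Yan), aos (a secreted inhibitor of the receptor) and pnt. BMP and activin signalling had 4 of 23 (of 14), brk, shn, daw and dpp, and axon guidance 4 of 36 (of 28), caps, Ptp99A, robo1 and unc-5. The ecdysone list had 3 of 20 (of 15), Eip75B, Hr38 and Hr39. A list of RNA-binding regulators had 3 of 21 (of 14), bru3, msi and elav. Segmentation factors had 2 of 24 (of 16), en and kni, and Wnt and Hedgehog signalling 1 of 30 (of 17), sgg. None of the 11 Hox complex genes (6 in any interval), 91 ribosomal protein genes (42), 70 cuticle protein genes (4) and 179 chemosensory receptor genes (1) had a TSS in these intervals. The lists were chosen with results of these data known and were not tested.

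TTCGG was more frequent under the strongest summit than under the weakest of the same interval. In the final set 324 of 875 strongest summits (37.0%, 95% exact interval 33.8% to 40.3%) had it within 50 bp on either strand, against 178 weakest summits (20.3%, 17.7% to 23.2%). Only the strongest had it in 263 intervals and only the weakest in 117. Over the replicate top lists the shares were 44.2% ± 3.01 and 20.6% ± 1.05, a difference of 23.6 ± 3.55 points (SD, n = 3). It was 22.1, 21.1 and 27.7 points in replicates 1, 2 and 3 (exact two-sided sign-flip permutation test, p = 0.25, the smallest possible). By signal of the strongest summit, the gap in the final set lay mainly in the top 25% of intervals, with 43.4% of strongest against 17.7% of weakest summits (n = 542). In the next 25% the shares were 26.7% and 23.3% (n = 288), and in the 25% after that the order turned, at 27.3% and 34.1% (n = 44). With the core word TTCG the difference was 16.6 points, in the same direction. The strongest summit has the higher signal by definition, so this compares signal ranks within an interval. Median G+C in the same windows of the final set was 49.5% at strongest and 46.5% at weakest summits. In the top 25% by signal it was 51.5% and 46.5%, and in the next 25% it was 46.5% at both. The part of base composition in the difference in TTCGG was not tested.

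Against single-summit intervals the excess of TTCGG was smaller within the top 25% by signal. The share was 29.1% in single-summit intervals and 30.0% in all intervals. For the replicate top lists it was 44.2% ± 3.01 against 28.1% ± 0.520, a difference of 16.2 ± 2.68 points (SD, n = 3; 15.4, 13.9 and 19.1; exact permutation p = 0.25). Within the top 25% by signal the difference was 3.00 ± 2.43 points (SD, n = 3; exact permutation p = 0.25), and in the final set the share there was 43.4% against 46.8%, the opposite order. In the next 25% of the final set it was 26.7% against 28.5%, again with no excess. In the 25% after that it was 27.3% of 44 against 23.2% of 1874. Over whole intervals the word was equally dense, at 2.70 per kb against 2.71 in single-summit intervals and 1.76 over the 6 chromosome arms. At least 1 match lay in 764 of the 875 (87.3%), at least 2 in 587 (67.1%), and at most 18. In single-summit intervals, which are shorter, the shares were 60.6% and 32.0%. With equal density per kb, the higher shares go with the greater width.

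The sequence under the weaker summit was set against 2 other positions, in close and in wide intervals separately. For each interval the same window was also placed at the midpoint between the strongest and the weakest summit. Another was placed at the mirror position, as far from the strongest on its other side. These positions were added after the data were seen. They lie farther from the strongest summit in wide intervals, where the mirror can fall outside the interval. Close and wide intervals are therefore not compared through them. In close intervals of the final set TTCGG was present at 34.4% of strongest summits, 19.5% of weakest, 21.8% of midpoints and 19.6% of mirror positions. In the replicate top lists the weakest exceeded the mirror by 0.870 ± 1.69 points (SD, n = 3; 1.44, 2.21 and -1.03; exact permutation p = 0.5). In wide intervals it was present at 50.5% of strongest summits, 24.7% of weakest (95% exact interval 16.4% to 34.8%), 17.2% of midpoints (10.2% to 26.4%) and 16.1% of mirror positions. Replicate differences from the mirror were 20.0, 14.6 and 0 points with 45, 48 and 29 wide intervals (11.5 ± 10.3, SD, n = 3; exact permutation p = 0.5), so the word did not separate the weaker summit from its mirror in every replicate.

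Base composition did. In wide intervals of the replicate top lists the median G+C content was 51.8% ± 2.06 at the strongest summit, 50.2% ± 1.51 at the weakest, 38.9% ± 0.572 at the midpoint and 40.9% ± 1.14 at the mirror (SD, n = 3). The weakest exceeded the midpoint by 11.2 ± 2.06 points and the mirror by 9.24 ± 2.06 points, higher in 3 of 3 replicates (exact permutation p = 0.25 each, the smallest possible). Most summits of the final set recurred in each replicate, so the replicates read largely the same sequence. SD and p here do not cover the number of loci. In close intervals the weakest had 46.5% in each replicate, 1.98 points above the mirror in each and 2.31 ± 0.572 below the midpoint. G+C also fell with distance from the stronger summit. On the mirror side of wide pairs in the final set it was 52.1% from -50 to 0 bp and 38.8% from -500 to -450 bp. By construction the weakest summit and the mirror are equally far from the strongest, and the midpoint is nearer to it. The cause of these differences was not tested. At midpoints of wide intervals in the final set 28.0% of windows had under 30% G+C, against 7.53% at either summit. The word GAGAG, which the GAGA factor recognises, was within 50 bp of 30.1% of strongest and 32.3% of weakest wide summits and of 14.0% of their midpoints. Median G+C in these windows was 52.5%, 51.5% and 39.6%, and its part in the shares of GAGAG was not tested. No share of GAGAG in single-summit intervals is given here. In the replicates the share of GAGAG at weakest wide summits exceeded that at midpoints by 22.2, 12.5 and 13.8 points (16.2 ± 5.28, SD, n = 3; exact permutation p = 0.25), and that at the mirror by 22.2, 6.25 and 20.7 points (16.4 ± 8.81). In close intervals it was lower at the weakest summit than at the midpoint, by 7.47 ± 0.297 points, but higher than at the mirror, by 4.89, 1.36 and 3.98 points (3.41 ± 1.83; SD, n = 3; exact permutation p = 0.25 each). These base and word windows overlap in close intervals, since summit and midpoint are there about 100 bp apart. Sequence matches are descriptions and show no binding by a named factor.

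**Figure D5:**
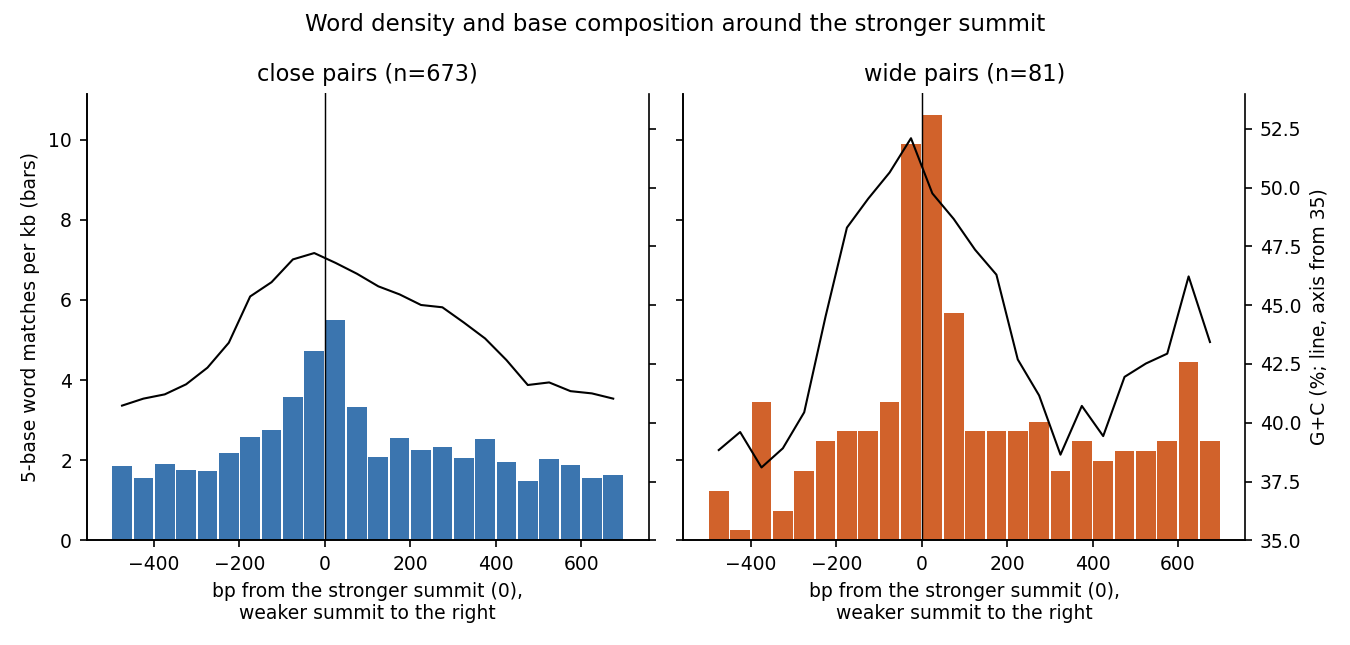
Density of TTCGG per kb on both strands (bars) and G+C content in percent (line, axis from 35) in bins of 50 bp around the stronger summit, for the 673 close and 81 wide pairs, turned so that the weaker summit is on the right. In close pairs the word peaks at the stronger summit, at 5.50 per kb, and is at 2.26 per kb from 200 to 250 bp, where the weaker lies. In wide pairs it reaches 10.6 per kb at the stronger summit, and G+C falls to 38.6% from 300 to 350 bp and is 46.2% from 600 to 650 bp.

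The summits were found again in the single replicates, while their joining into 1 interval was less stable. The final set was made from the same reads, so a high share follows in part from its construction. In the 30000 rows of each replicate, 96.7% ± 0.412 of strongest summits and 95.4% ± 0.589 of the other summits had a replicate summit within 100 bp (SD, n = 3). Every summit of the interval was found for 91.8% ± 0.761 of intervals. The replicate's highest summit in that stretch was the same in 93.8% ± 0.893, and where all summits were found the strongest exceeded the weakest in 98.8% ± 0.392. Yet the share overlapping a replicate interval with several summits, by at least 1 bp, was 68.2%, 66.2% and 60.0% in replicates 1, 2 and 3 (64.8% ± 4.28, SD), against 8.54% for single-summit intervals. Such an overlap does not show that the same summits were joined. The eff interval and the 5-summit tara interval had it in all 3 replicates, though no replicate held all their summits.

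All summits were found in all 3 replicates for 707 of the 875 (80.8%), against 91.6% of all intervals, most of which have only 1 summit to find. The count was 552 of 678 close, 89 of 93 wide and 66 of 104 mixed intervals. Of the 707, 364 overlapped a several-summit interval in each replicate, and 112 in none. Among the latter were caps, SCaMC, rib, robo1 and sgg, whose summits stood in separate intervals in each replicate. For 9 of the 875 intervals no replicate held every summit, among them CG34136, eff and the 5-summit tara interval above.

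Position and balance of the weaker summit were alike between replicates. For the 673 close pairs the nearest replicate summit lay a median of 13.0 ± 2.0 bp from the weaker one (SD, n = 3). In 95.2% ± 0.446 of them a replicate summit was on the weaker summit's side and none at the mirror position, in 0.396% ± 0.343 the reverse held, and in 3.81% ± 0.522 neither position had one. For the 81 wide pairs the median distance was 7.0 ± 1.73 bp, with a summit on the weaker side only in 88.9% and on both sides in 10.3% ± 0.713. The ratio of weakest to strongest in a replicate followed that of the final set with Spearman correlations of 0.839, 0.798 and 0.834 over 809, 805 and 796 intervals, and of 0.953, 0.941 and 0.977 in wide ones. The intervals share reads with the final set, so these correlations are descriptions with no p. The median ratio in the replicates was 36.9% ± 1.06 (SD, n = 3) against 36.8% in the final set for the same intervals.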

How the data were processed

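ChIP-seq peak lists of 3 biological replicates of 1 group were analysed. Per the file headers (the descriptions deposited with the lists), peaks were called by the authors on each replicate and on the pooled alignments, with 1 control alignment as background, and the final set was drawn from these by the irreproducible discovery rate, on dm6 per the labels. For the aligner, the peak caller and the rate's threshold, names and settings are not given in the sources used. Each list has a deposited signal per peak, in the caller's own units, a deposited −log10 q-value, which reaches a ceiling and was not used to rank, and a deposited summit offset. Read counts were not used, so depth is unknown and no interval covers the counting error of reads. The 95% exact Clopper-Pearson intervals cover the number of regions only, and neighbouring regions are not independent.

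Rows with the same chromosome, start and end were joined into intervals. The members and the gene lists were chosen with earlier results of these data known. Genes and TSSs came from Ensembl release 115 and sequence from RefSeq, and the 6 arms of that copy are long enough for every peak. Intervals were named by the TSS nearest the strongest summit: the 8 with most summits, the 8 widest, the 10 of highest signal, the 6 most even and 6 most uneven pairs of the top 25% by member signal, the 6 with most genes, and up to 3 per gene list. Gug and the genes with several intervals, and further list members, were named after their values were seen. In the lists 3 names had no unique match.

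Each comparison was taken per replicate and tested by an exact two-sided sign-flip permutation over 3 replicates, whose smallest p is 0.25, so no comparison can pass 0.05. Sequence and TSS positions are fixed, and most summits of the final set recurred in each replicate. For words, G+C and promoter shares, SD and p therefore cover repeated calling of largely the same places, not the number of loci. Nothing in the labels says whether the replicates are separate collections beyond their numbering as biological replicates. Alternatives were other windows, words, list lengths and overlaps, single replicates left out, and close or wide intervals alone, the last added after the data were seen. The functions were tested on simulated data with planted words and spacings. Python 3.11.15, numpy 2.4.6, pandas 2.3.3, scipy 1.17.1 and matplotlib 3.10.9 were used.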

Additional observations from a re-analysis of the deposited data

How the results depend on the processing

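Over the replicate lists, the mean difference turned in only 1 of the 4 tested comparisons, the promoter share against single-summit intervals. It went to -4.41 points in the top 25% by signal and to -3.71 points with wide intervals only. Its other values ran from 3.28 points in lists cut to 50% of their rows and 4.37 with only the most upstream TSS to 34.5 with all rows. The excess of TTCGG over single-summit intervals fell to 3.00 points in the top 25% by signal and 9.07 in the shorter lists. In the final set the order turned in the top 25%, at 43.4% against 46.8%. It also turned in the next 25%, at 26.7% against 28.5%, but not in the 25% after that, at 27.3% against 23.2%. The excess over the weakest summit ran from 16.6 to 27.3 points over its alternatives, none of which took intervals of lower signal alone. Leaving out single replicates gave 11.7 to 13.3, 14.7 to 17.3, 21.6 to 24.9 and 0.508 to 1.62 points for the promoter share and the word against single-summit intervals, the word within intervals and the promoter share within intervals, in this order. With 3 or more summits the replicate medians were 1829 bp in width, 301.7 bp in gap and 19.95% in ratio, and in the shorter lists they were 874.3 bp, 205.3 bp and 39.4%. The share overlapping a several-summit replicate interval was 60.4% at reciprocal overlap of 50% and 72.4% for wide intervals. Every summit was found in 83.9% within 50 bp, 97.5% within 200 bp and, for wide intervals, 98.6%. The same strongest summit was found in 87.7% within 50 bp, 97.0% within 200 bp, 81.0% at reciprocal overlap and 95.1% for close intervals. In the final set cut to 50% of its rows 260 intervals with several summits held a TSS. The cause of these shifts was not tested, except that shorter lists and stricter limits hold fewer items by construction. Depth is unknown, and 3 replicates of 1 group with no untagged group limit each comparison.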
